A study of Rattus norvegicus with 6 samples.

Results

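The heat shock proteins and chaperones were the 84 genes whose probe sets carried, as their only platform symbol, a name that starts with Hsp, Dnaj, Bag or Cct, with a digit after the last pair, or one of the symbols Tcp1, Hsf1, Hsf2, Stip1, Ahsa1 and Cryab. They were chosen by name, not by their values. The 84 genes were read by 125 probe sets, out of 14217 genes and 31042 probe sets on the array. By family they were 8 small Hsp genes, 12 of Hsp70 with Hsp110, 2 of Hsp90, 39 Dnaj genes, 8 Cct genes with Tcp1, 2 mitochondrial chaperonins, 6 Bag genes, 2 Hsf genes and 3 other cochaperones. A pair of names that the rule also takes belong to other kinds of protein, Hspg2, which encodes the matrix proteoglycan perlecan, and Hspbap1, whose product binds a small Hsp.

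Chaperones hold unfolded proteins and help them to reach their shape. Small Hsp proteins bind them without ATP, Hsp70 folds them in cycles that Dnaj proteins start and Bag and Hsp110 proteins help to reset, Hsp90 takes over partly folded clients such as kinases and receptors, and the Cct ring folds actin and tubulin. Hsf1, a transcription factor that stress releases from chaperones, binds heat shock elements in the promoters of many of these genes, and neurons, with long axons and a high load of newly made protein, are known to express the constitutive members strongly.

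The study asked which mRNAs differ in the prelimbic cortex (PL), a part of the medial prefrontal cortex, in rats with neuropathic pain. Spared nerve injury (SNI) cuts the tibial and common peroneal branches of the left sciatic nerve and leaves the sural nerve whole, and in the control group the nerves were exposed without being cut. The rats were male Sprague Dawley animals, 6 to 7 weeks old when obtained, and the PL of the side opposite to the injury was taken on day 14. The labels name no genetic change and no drug for either group. Each group had 3 samples on Affymetrix rat genome arrays, and no source used here says whether each sample came from 1 rat or from several, so a p-value covers no more than the scatter of these samples and part of that may be technical.

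Every value below is a log2 value relative to the median of its probe set over the 6 samples, and a gene with several probe sets has their mean. A difference of the groups can be read from such values, and a level cannot, so the order of the genes by abundance and the presence of the tissue's defining markers were not open to a check. The centring also makes the lowest sample of the higher group and the highest sample of the lower group mirror each other about 0 for a gene read by 1 probe set whose groups do not overlap. A difference is given as the SNI group minus the control group, a negative value being lower after SNI.

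The control samples were not alike. On the first principal component of all genes, which held 37% of the variance, control samples 1 and 3 lay at 14.3 and 8.82 and control sample 2 at −6.07, next to the SNI samples at −5.9 to −5.38. The median SD over all genes was 0.094 in the control group and 0.0587 in the SNI group. The 18 hybridization controls, bacterial transcripts added equally to every array, averaged −0.158 ± 0.0966 (SD, n = 3) on the control arrays and 0.114 ± 0.0702 (SD, n = 3) on the SNI arrays, with an exact two-sided permutation p = 0.1, the smallest that 3 against 3 samples allow. Their part in the results was not tested beyond the fit with this mean as a covariate.

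More chaperone mRNAs were lower than higher in the PL after SNI, by small amounts. Of the 84 genes, 64 (76.2%) had a difference below 0, against 54.8% of all genes, and their median difference was −0.092 against −0.011. At an unadjusted p under 0.05 by limma, 20 were lower (23.8%) and 1 was higher, where 9.19% of all genes were lower and 3.96% higher. The groups did not overlap for 33 genes that were lower (39.3%) and 2 that were higher, where the shares of all genes were 13.7% and 6.39%. None of the 84 passed an adjusted p under 0.05, by limma or by the methods' t-test, which gave 24 lower and 0 higher without adjustment. The share of all 14217 genes past the adjusted threshold was 0%, and the smallest adjusted p of a chaperone gene was 0.175. In bulk tissue, fewer cells that carry an mRNA and less of it in each cell cannot be told apart.

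**Figure D1:**
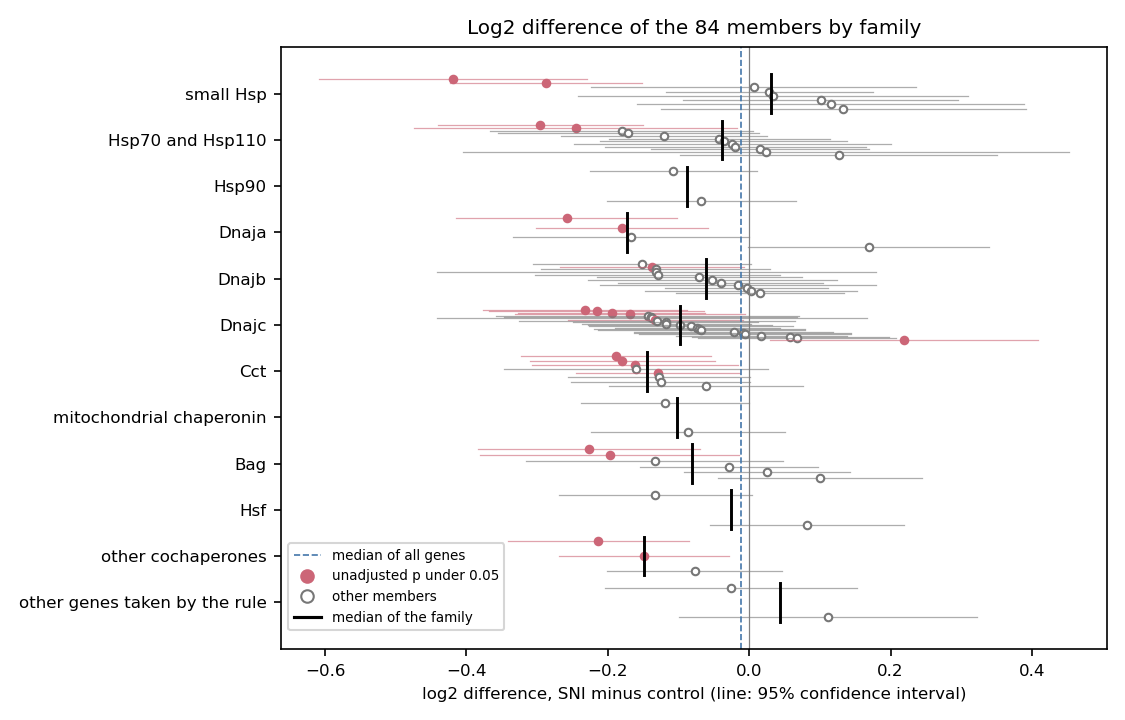
Log2 difference of each of the 84 chaperone genes, SNI minus control (x axis), by family (y axis); points are genes, thin lines the 95% confidence intervals from limma, filled points an unadjusted p under 0.05, black bars the family medians and the dashed line the median of all genes (−0.011). Filled points lie to the left for all families that have one except Dnajc, which also holds the 1 filled point to the right, and the medians of the Cct and Dnaja genes lie farther left than that of the small Hsp genes.

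The count of 20 depended on the control samples. Control sample 2 was the lowest control for 50 of the 84 genes (59.5%), against 34.0% of all genes, and for 15 of the 20 genes that were lower. Without control sample 2, 36 chaperone genes were lower, when 14.6% of all genes were. With control samples 1 and 3 left out, so that control sample 2 stood alone, 8 were lower and 4 higher, when 10.9% of all genes were lower, so the excess over all genes was then absent. Without SNI sample 1, 11 were lower and 2 higher, when 5.69% of all genes were lower and 2.59% higher. With the mean hybridization control signal as a covariate, 6 were lower and 3 higher, when 4.42% of all genes were lower. Then 3 of the 21 called genes, Hspb1, Bag2 and Dnajc21, held their call. The median difference was −0.084, against −0.0062 for all genes, and 57 of the 84 genes lay below 0. That control signal did not overlap between the groups, so this fit cannot separate it well from the group. A call lost there does not show that the difference is absent. When the 6 samples were dropped one by one, 11 of the 21 were called every time, namely Hspb1, Cryab, Hspa4l, Stip1, Dnaja1, Dnaja2, Dnajc9, Dnajc10, Dnajc12, Bag2 and Cct6a. The sign of all 21 stayed the same in the 15 settings tried. The groups did not overlap for any of the 21, so leaving out samples could not turn the sign.

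**Figure D2:**
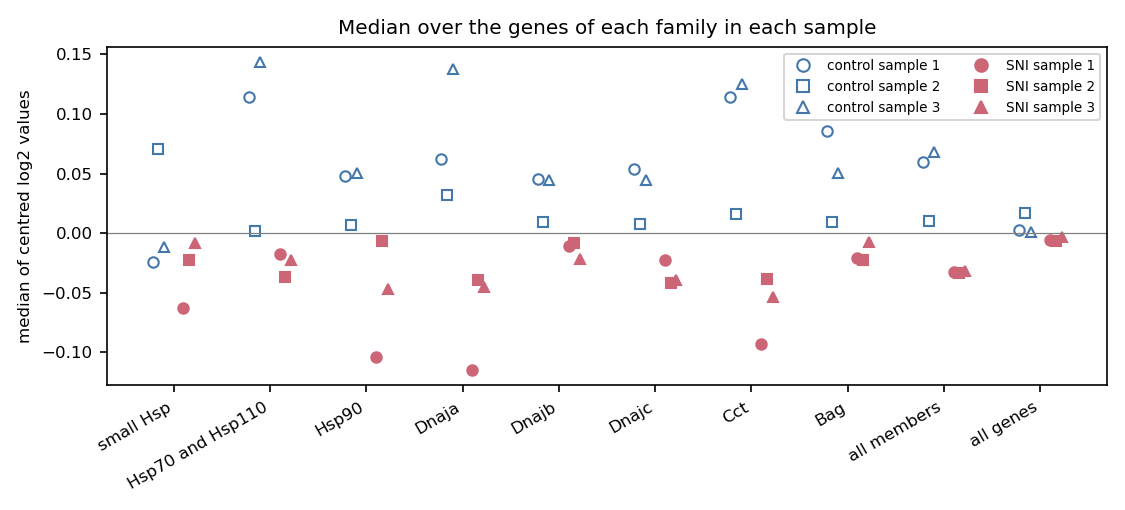
Median of the centred log2 values over the genes of each family (x axis) in each of the 6 samples (y axis), open symbols for the 3 control and filled symbols for the 3 SNI samples, with all chaperone genes and all genes at the right. For the chaperone genes together control samples 1 and 3 lie at 0.059 and 0.068, control sample 2 at 0.010 and the SNI samples at −0.033 to −0.032, while for the small Hsp genes the groups overlap.

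The small Hsp genes split into a pair that was lower and 6 others that were not. Hspb1, which encodes Hsp27, a stress-induced holdase that also protects actin filaments, had the lowest difference of the 84 genes. It stood at 0.41, 0.14 and 0.15 in control samples 1 to 3 and at −0.14, −0.22 and −0.20 in SNI samples 1 to 3. All SNI samples lay under all control samples, with control sample 1 well above the others. The difference was −0.42 (SE 0.082, 95% confidence interval −0.61 to −0.23, limma adjusted p = 0.175), or 25.2% less signal. With the hybridization controls as a covariate it was −0.76 and without control sample 1 it was −0.33.

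Cryab, which encodes αB-crystallin, a holdase found in astrocytes and oligodendrocytes as well as in the lens, was at 0.14, 0.17 and 0.088 in the control samples and at −0.14, −0.088 and −0.22 in the SNI samples. Here control sample 2 was the highest sample, and the groups did not overlap. The difference was −0.29 (SE 0.059, limma adjusted p = 0.189), or 18.1% less signal, and it was −0.33 with control sample 2 as the only control. Cryab passed the unadjusted threshold in 14 of the 15 settings, and not with the covariate, where its difference was −0.29.

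The 6 remaining small Hsp genes had differences above 0, from 0.0065 for Hspb8, a partner of Bag3 in the clearance of misfolded protein, to 0.13 for Hspb6, and their groups overlapped. Hspb6 ranged from −0.15 to 0.32 within the SNI group. Hspb9, Hspb7, Hspb2 and Hspb3 were at 0.12, 0.10, 0.033 and 0.029. The 95% confidence interval of Hspb8 ran from −0.22 to 0.24, which leaves room for a difference of either sign. The median of the 8 small Hsp genes was 0.031. Cryab and Hspb2 are neighbouring genes, and their differences were of opposite sign.

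The bases upstream of Hspb1 are shown since it was the member with the lowest difference and a textbook target of Hsf1, which binds inverted repeats of the unit GAAnn, so that the smallest match is a pair, GAANNTTC or TTCNNGAA, on either strand. In the RefSeq sequence of build GRCr8 the 250 bases before its start, on the minus strand at chr12:26432302-26432551, hold 2 such pairs, in capitals, at −129 to −122 and −109 to −102 from the start.
Hspb1: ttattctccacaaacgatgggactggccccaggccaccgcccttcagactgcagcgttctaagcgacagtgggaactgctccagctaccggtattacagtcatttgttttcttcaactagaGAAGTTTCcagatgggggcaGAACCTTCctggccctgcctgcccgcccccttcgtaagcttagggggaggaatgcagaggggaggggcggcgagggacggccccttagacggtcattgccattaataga
A match of letters is a description and no evidence of binding.

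Among the Hsp70 and Hsp110 genes the lower ones were of the Hsp110 type, large relatives that act as nucleotide exchange factors of Hsp70. Hspa4l stood at 0.17, 0.085 and 0.27 in the control samples and at −0.15, −0.085 and −0.13 in the SNI samples. The groups did not overlap, and the difference was −0.30 (SE 0.063, limma adjusted p = 0.196), or 18.5% less signal. Hspa4 stood at 0.15, 0.022 and 0.43 in the control samples and at −0.022, −0.057 and −0.058 in the SNI samples, with control sample 3 far above the rest. Its difference was −0.25 (SE 0.099, adjusted p = 0.344), and −0.13 without control sample 3. It was not called without that sample or without any 1 of the SNI samples. Hsph1, the third of the type, was at −0.18 (95% confidence interval −0.37 to 0.0058), with groups that did not overlap and control sample 3 again the highest, at 0.29.

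The 9 genes of Hsp70 proper did not pass the unadjusted threshold as reported and had differences between −0.17 and 0.13. Hspa5, which encodes BiP, the Hsp70 of the endoplasmic reticulum, was at −0.17 (95% confidence interval −0.36 to 0.014), with control samples 1 and 3 both at 0.21 and control sample 2 at −0.028, among the SNI samples. Hspa12a was at −0.12 with the same arrangement. Hspa1a, the stress-induced Hsp70, was at 0.13 (95% confidence interval −0.097 to 0.35) and ranged from −0.24 to 0.0029 in the control samples and from −0.13 to 0.15 in the SNI samples. Its sequence is nearly identical to that of Hspa1b, so its value is uncertain and may hold signal of both genes. Hspa13, Hspa14, Hspa12b, Hspa1l and Hspa2 were between −0.042 and 0.024. For Hspa2 control sample 2 was at −0.53, and without it the difference was −0.215, on the other side of 0. Of the 12 genes of both types 2 (16.7%) were lower as reported, where 9.19% of all genes were. The number was 6 without control sample 2, when 14.6% of all genes were lower, and 0 with the covariate, when 4.42% were. It was 1 without control sample 3 or any 1 SNI sample, when 5.69% to 6.96% of all genes were lower.

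Hspa9, which encodes mortalin, the mitochondrial Hsp70, shows what the mean over probe sets can hide. Its gene value differed by −0.036, while its 4 probe sets were at −0.24, −0.13, −0.27 and 0.49. The first and the third had an unadjusted p under 0.05 with groups that did not overlap, and the fourth did as well in the opposite direction, with overlapping groups. Of the 30 chaperone genes read by several probe sets, 15 had all of them below 0, 2 had all above and 13 had them on both sides. Counted by probe set, 26 of the 125 were lower and 2 higher, where 7.47% and 5.6% of all probe sets were. None of the 125 passed an adjusted p under 0.05, while 10 of all 31042 probe sets did.

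The Hsp90 genes measured were 2, since Hsp90aa1, the stress-induced cytosolic form, and Hspa8, the constitutive Hsp70, were read only by probe sets that also carry another symbol. Hsp90ab1, the constitutive cytosolic form, stood at 0.041, 0.031 and 0.082 in the control samples and at −0.089, −0.031 and −0.047 in the SNI samples. The groups did not overlap, and the difference was −0.11 (95% confidence interval −0.23 to 0.011, limma adjusted p = 0.422). Hsp90b1, the form of the endoplasmic reticulum, was at −0.067 with overlapping groups. Neither passed the unadjusted threshold by limma, and Hsp90ab1 passed it with the methods' t-test.

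The cochaperones Stip1 and Ahsa1, which serve Hsp90, were lower at an unadjusted p under 0.05. Stip1, which joins Hsp70 to Hsp90, was at 0.058, 0.12 and 0.10 in the control samples and at −0.17, −0.058 and −0.13 in the SNI samples. All control samples lay above all SNI samples, control sample 2 highest. Its difference was −0.21 (SE 0.055, limma adjusted p = 0.216), −0.24 with control sample 2 alone, and −0.090 with the covariate, where the call was lost. Ahsa1, the activator of the Hsp90 ATPase, was at −0.15 (SE 0.052, adjusted p = 0.297), with control samples at 0.043 to 0.12 and SNI samples at −0.094 to −0.043, and was not called without control sample 3, SNI sample 1 or SNI sample 3. Hspbp1, an exchange factor of Hsp70, was at −0.077 with groups that did not overlap.

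The Dnaj genes encode the J-domain proteins that bring clients to Hsp70 and start its ATP cycle, and the 39 measured make up the largest family here. Of these, 32 were below 0, and their median was −0.098. At an unadjusted p under 0.05, 8 were lower (20.5%) and 1 higher, where 9.19% of all genes were lower and 3.96% higher. The share that was lower was highest among the 4 Dnaja genes, at 2 of 4, against 1 of 12 Dnajb and 5 of 23 Dnajc genes. The medians were −0.17, −0.061 and −0.098 in that order, and the differences between the families were not tested. Without control sample 2 the number of Dnaj genes that were lower was 16, without SNI sample 1 it was 5, and with the covariate it was 3. The shares of all genes were then 14.6%, 5.69% and 4.42%.

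Dnaja1, a main cytosolic partner of Hsp70, stood at 0.19, 0.057 and 0.28 in the control samples and at −0.082, −0.066 and −0.098 in the SNI samples. The SNI samples lay close together under a control group in which sample 2 was lowest. The difference was −0.26 (SE 0.068, limma adjusted p = 0.216), or 16.4% less signal, and both probe sets were below 0, at −0.24 and −0.27. Dnaja2, its close relative, stood at 0.054, 0.078 and 0.077 in the control samples and at −0.15, −0.13 and −0.054 in the SNI samples. The 3 control samples of this gene had an SD of 0.014, and the difference was −0.18 (SE 0.053, adjusted p = 0.238). With control sample 2 alone it was −0.19.

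Dnaja3, the mitochondrial member of the group, ran the other way. It was at −0.013, −0.10 and −0.074 in the control samples and at 0.054, 0.013 and 0.25 in the SNI samples, a difference of 0.17 (95% confidence interval −0.0012 to 0.34, limma adjusted p = 0.383) with groups that did not overlap. Dnajb1, the heat-induced Hsp40, was the only Dnajb gene called, at −0.14 (SE 0.056, adjusted p = 0.354). Of its 2 probe sets 1 was at −0.23 and the other at −0.039, and the call was lost without control sample 1 or 3 and without SNI sample 1 or 3.

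In all, 5 Dnajc genes of varied roles were lower. Dnajc10, a disulfide reductase of the endoplasmic reticulum that acts with BiP, stood at 0.14, 0.048 and 0.23 in the control samples and at −0.12, −0.11 and −0.056 in the SNI samples. Its difference was −0.23 (SE 0.063, limma adjusted p = 0.219), with probe sets at −0.23 and −0.24. Its groups did not overlap, and control sample 2 was the nearest to the SNI samples.

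Dnajc9, a histone cochaperone, was at 0.13, 0.040 and 0.11 against −0.12, −0.040 and −0.15, a difference of −0.19 (SE 0.057, limma adjusted p = 0.238). Dnajc12, which binds the hydroxylases that make monoamine transmitters, was at 0.022, 0.19 and 0.13 against −0.022, −0.14 and −0.15, a difference of −0.22 (SE 0.066, adjusted p = 0.249) that was −0.29 with control sample 2 as the only control. Control sample 2 was the lowest control for Dnajc9 and the highest for Dnajc12, and in neither gene did the groups overlap. Dnajc13, which acts in endosomal sorting, and Dnajc18 were at −0.13 and −0.17 (adjusted p = 0.346 and adjusted p = 0.360), and both lost the call without control sample 1 or 3 and without SNI sample 1 or 2.

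Dnajc21, a factor of ribosome maturation read by 1 probe set, was the only one of the 84 members that was higher at an unadjusted p under 0.05. It was at −0.10, −0.012 and −0.010 in the control samples and at 0.010, 0.31 and 0.22 in the SNI samples. SNI sample 1 lay close to the control samples. The difference was 0.22 (SE 0.082, limma adjusted p = 0.322), 0.52 with the covariate, and not called without control sample 1, SNI sample 2 or SNI sample 3.

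**Figure D3:**
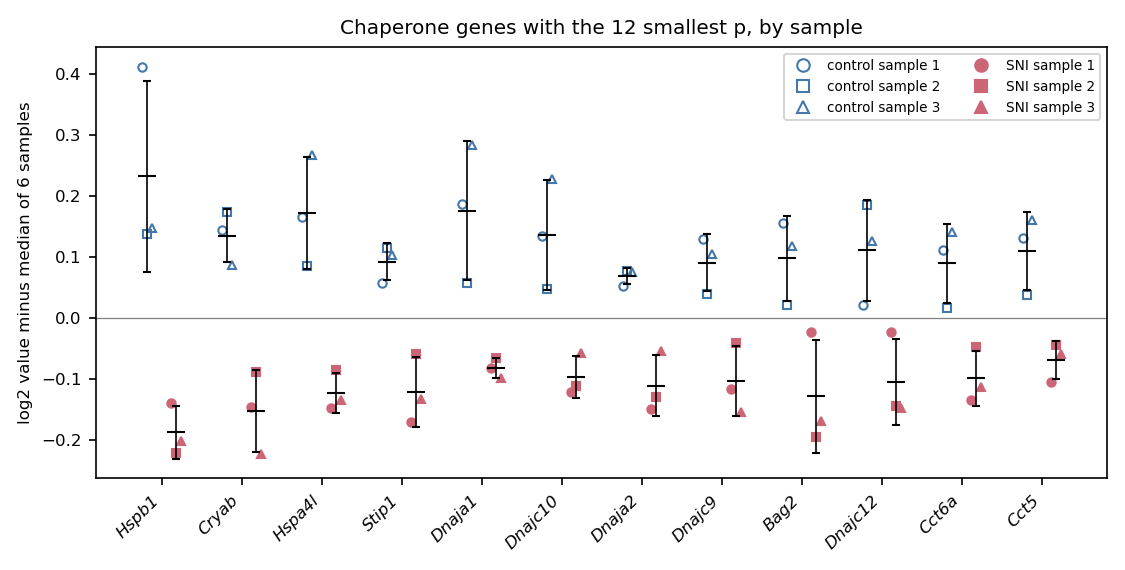
Centred log2 value (y axis) of the 12 chaperone genes with the smallest p (x axis) in each sample, open symbols for control and filled symbols for SNI samples, with the mean and SD of each group (n = 3). For Hspb1 the control samples lie at 0.14 to 0.41 and the SNI samples at −0.22 to −0.14, and for the 12 genes shown every control sample lies above every SNI sample.

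All genes of the Cct family lay below 0, as did the few of Hsp90, of the mitochondrial chaperonins and of the other cochaperones. The 8 genes, Tcp1 and Cct2 to Cct8, encode the subunits of 1 ring complex of the cytosol. Their differences ran from −0.19 to −0.061 with a median of −0.14, 4 were lower at an unadjusted p under 0.05, and the groups did not overlap for 6. Control samples 1 and 3 had family medians of 0.11 and 0.13, control sample 2 one of 0.016, and SNI samples 1 to 3 medians of −0.093, −0.039 and −0.053. Control sample 2 was the lowest control for 7 of the 8 genes.

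Cct6a was at 0.11, 0.018 and 0.14 in the control samples and at −0.13, −0.047 and −0.11 in the SNI samples, a difference of −0.19 (SE 0.058, limma adjusted p = 0.251). Cct5 was at 0.13, 0.038 and 0.16 against −0.10, −0.044 and −0.059, a difference of −0.18 (SE 0.057, adjusted p = 0.259) that was not called without SNI sample 1. In both, SNI sample 1 was the lowest sample and control sample 3 the highest. Cct2 and Cct4 were at −0.16 and −0.13 (adjusted p = 0.335 for both), Cct8 at −0.16, Cct3 at −0.13, Cct7 at −0.12 and Tcp1 at −0.061. For Cct8 and Tcp1 control sample 2 lay below every SNI sample, at −0.064 and −0.025. The number of Cct genes called was 6 without control sample 2, when 14.6% of all genes were lower. It was 3 without SNI sample 2, 2 without control sample 1, control sample 3 or SNI sample 3, and 1 without SNI sample 1. In these settings 5.69% to 7.5% of all genes were lower. With the covariate the number was 0, when 4.42% of all genes were lower, and the median was −0.16. With control sample 2 alone the median was −0.094.

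The mitochondrial chaperonin genes Hspd1 and Hspe1, which encode Hsp60 and its lid Hsp10, were at −0.12 (95% confidence interval −0.24 to 0.0003) and −0.086 (95% confidence interval −0.22 to 0.051). For Hspd1 the control samples lay at 0.027 to 0.094 and the SNI samples at −0.064 to −0.027, and for Hspe1 the groups overlapped. Neither passed the unadjusted threshold as reported. Hspd1 lay near it and passed with the methods' t-test, with the median of the probe sets and without control sample 3.

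Of the 6 Bag genes, whose products release clients from Hsp70, 2 were lower (33.3%), where 9.19% of all genes were. Bag2, an inhibitor of the ubiquitin ligase that works with Hsp70, was at 0.16, 0.022 and 0.12 in the control samples and at −0.022, −0.19 and −0.17 in the SNI samples. Its difference was −0.23 (SE 0.068, limma adjusted p = 0.245), −0.43 with the covariate and −0.15, not called, with control sample 2 alone. Bag5 was at −0.20 (SE 0.079, adjusted p = 0.344), with control samples from 0.0059 to 0.29, and held the call only when control sample 2 was the sample left out, not with any of the other 5. Bag1 and Bag6 were at 0.10 and 0.025 with overlapping groups.

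Hsf1, the main regulator of the heat shock response, was at 0.12, 0.0053 and 0.15 in the control samples and at −0.061, −0.050 and −0.0053 in the SNI samples. The groups did not overlap, and the difference was −0.13 (95% confidence interval −0.27 to 0.0043, limma adjusted p = 0.394). Hsf2 was at 0.082 with overlapping groups, and its 4 probe sets were at 0.16, −0.16, 0.17 and 0.16.

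Of 24 genes listed as targets of Hsf1, 19 were measured, and 17 of these were below 0 with a median of −0.14. At an unadjusted p under 0.05, 8 were lower (42.1%) and none was higher, where 9.19% of all genes were lower. These were Hspb1, Cryab, Hspa4l, Stip1, Dnaja1, Ahsa1, Dnajb1 and Chordc1. All but Chordc1 are members whose calls were counted above, so the list is not a separate result. Chordc1, an Hsp90 cochaperone outside the naming rule, was at −0.25 (SE 0.087, limma adjusted p = 0.291), with control sample 1 at 0.36 and the other controls at 0.025 and 0.15. The groups did not overlap for 11 of the 19 (57.9%), all of them lower, where the share of all genes was 13.7%. Left out one at a time, the samples gave 5 to 10 lower genes. The count was 10 without control sample 2, when 14.6% of all genes were lower. It was 5 without SNI sample 1 or SNI sample 3, when 5.69% and 5.7% of all genes were lower. With the covariate 2 were lower, when 4.42% of all genes were. With control sample 2 alone 14 of the 19 lay below 0 and the median was −0.092, where that of all genes was −0.031. The stress-induced Hspa1a, in the same list, was not lower.

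The promoters of the chaperone genes were searched for the heat shock element, taken as 3 units in a row, GAANNTTCNNGAA or TTCNNGAANNTTC. Matches overlap where another unit follows, and each holds 2 of the pairs above. RefSeq windows of 300 bases, from 250 before to 50 after the start in build GRCr8, were at hand for 70 of the 84 genes and for 27457 genes in all. Such an element stood in 5 of the 70 (7.14%) and in 218 of all genes (0.794%). The 30 bases around it are given for these 5, as the members in which the textbook site could be read, with the element in capitals, all on the strand of the gene. Cct4 has it at chr14:101193074-101193103 (plus strand), Dnaja1 at chr5:60638405-60638434 (plus), Hsph1 at chr12:10427324-10427353 (plus), and Hspe1 and Hspd1, which are read in opposite directions from 1 shared promoter, at chr9:64084256-64084285 (plus for Hspe1, minus for Hspd1).
Cct4: gcgtcgctTTCTGGAAGGTTCgtggaggcg
Dnaja1: gccgggcgGAACTTTCCAGAAcgctcggtg
Hsph1: gccgcagaTTCTGGAAAGTTCtcctcagta
Hspe1: gctcggTTCTAGAACCTTCCGGAAggcccc
Hspd1: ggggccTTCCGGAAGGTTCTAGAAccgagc
The sequences of Hspe1 and Hspd1 are the same bases read from either strand. In Cct4 and Dnaja1 the element lies after the start, at 26 to 38 and at 10 to 22, and in Hsph1, Hspe1 and Hspd1 before it. The 5 genes were all below 0. Of them 2, Cct4 and Dnaja1, were lower at an unadjusted p under 0.05, and the groups did not overlap for 4. The shares of all genes were 9.19% and 13.7%.

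The median difference of these 5 genes was −0.13, and that of the 65 without the element was −0.070, of which 15 were lower. The shorter pair, which is part of the element, stood in 19 of the 70 windows (27.1%) and in 16.7% of all genes. Of the 19, 15 were below 0, 9 were lower and the median was −0.13, while of the 51 without a pair 8 were lower and the median was −0.068. Among the lower genes, Hspb1, Hspa4l, Stip1, Cct5, Cct6a, Dnajb1 and Dnajc18 have a pair and no longer element, and Cryab has no window in the table. The window of Hspa1a, a listed Hsf1 target, held neither the element nor a pair, so a lack of a match does not show that a gene has no site. These shares describe letters in a short window, and no test was made of them.

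Grouped by compartment after the values were seen, 8 members assigned to the endoplasmic reticulum were all below 0, with a median of −0.13. They were Hspa5, Hspa13, Hsp90b1, Dnajb9, Dnajb11, Dnajc1, Dnajc3 and Dnajc10. Only Dnajc10 among them was lower at an unadjusted p under 0.05, and only its groups did not overlap. Control sample 2 was the lowest control for all 8 and lay within the range of the SNI samples for 5. The medians of the 8 were 0.15 and 0.10 in control samples 1 and 3, −0.030 in control sample 2 and 0.021, −0.065 and −0.044 in the SNI samples. For Dnajb9, which is induced by unfolded protein in that compartment, control samples 1 and 3 were at 0.31 and 0.21 and control sample 2 at −0.25, below all SNI samples. The list of 8 was not complete. Among J-domain proteins of the membrane of that compartment that it left out, Dnajb12 and Dnajb14 were at 0.0029 and 0.016. Dnajc14 and Dnajc18, also left out, were at −0.12 and −0.17. The 8 mitochondrial members had a median of −0.069, and none was called.

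Chaperone genes outside the naming rule were read from a list of 31 cochaperones and folding factors, of which 30 were measured. Of these, 25 were below 0 with a median of −0.075. At an unadjusted p under 0.05, 6 were lower (20.0%) and 1 was higher, where 9.19% of all genes were lower and 3.96% higher. The lower ones were Chordc1, Tomm70, the mitochondrial import receptor that docks Hsp70 and Hsp90, at −0.22, Grpel1, the exchange factor of mitochondrial Hsp70, at −0.20, Nudc at −0.16, Sgta, which hands tail-anchored proteins on, at −0.15, and Ppp5c, a phosphatase bound to Hsp90, at −0.13. The higher one was Unc45a, a chaperone of myosin, at 0.18 (SE 0.050, limma adjusted p = 0.229). The count of lower genes was 7 without control sample 1 or 2, 3 without SNI sample 2 or 3 and 2 without SNI sample 1. It was 1 without control sample 3 or with the covariate. In these settings 4.42% to 14.6% of all genes were lower. With control sample 2 alone 17 of the 30 lay below 0 and the median was −0.012, where that of all genes was −0.031. The list shares Chordc1, and some genes that were not called, with the Hsf1 targets. Of 6 prefoldin subunits, which pass actin and tubulin to the Cct ring, 5 were measured, and Pfdn6 and Pfdn4 were lower at −0.18 and −0.17. Both calls were lost without SNI sample 3, control sample 1 or with control sample 2 alone, and 1 of them was lost in each of the other settings that left out a sample.

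Another 6 probe sets of these families carry more than 1 symbol and were not counted among the members. They belong to Hspa1b with Hspa1a, to Hsp90aa1 and Dnajb6 with pseudogenes and to Hspa8 with a neighbour, and their differences ran from −0.20 to −0.11. Of the 6, 2 were lower at an unadjusted p under 0.05, the groups did not overlap for 3, and the smallest adjusted p by limma was 0.324. Which of the genes on such a probe set gives the signal cannot be read from it.

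Markers of cell types were read beside these values, each as the mean centred value of the list in control samples 1 to 3 and SNI samples 1 to 3. The 10 neuron markers, all measured, were at 0.080, 0.00084 and 0.19 against −0.12, −0.015 and −0.062, with 9 of 10 below 0 and 2, Syt1 and Snap25, lower at an unadjusted p under 0.05. The neuron list ran from control sample 3 at the top to SNI sample 1 at the bottom. The medians of the Cct, Dnaja and Hsp90 genes and of the Hsf1 targets had the same order of the 6 samples. By means, the measure used for the markers, the Dnaja genes did not, with SNI sample 3 at 0.016 and control sample 2 at 0.010. Medians of the small Hsp, Hsp70 with Hsp110, Dnajb, Dnajc, Bag and Hsf genes had other orders. So did those of the mitochondrial chaperonins and the other cochaperones. Of 9 oligodendrocyte markers measured, 8 were below 0 and 1 was lower, with list means of 0.12, −0.17 and 0.30 against −0.15, 0.023 and −0.039. Control sample 2 lay below every SNI sample. The 1 call was lost in each setting that left out control sample 1, control sample 3 or an SNI sample, 4 were lower without control sample 2, and with control sample 2 alone 0 of the 9 lay below 0, with a median of 0.090.

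The 9 microglia markers measured were higher, 8 of the 9 above 0 and 6 of them at an unadjusted p under 0.05, with list means of −0.17 to −0.078 in the control samples and 0.060 to 0.17 in the SNI samples. Of the astrocyte and the endothelial and mural markers, 9 each, 1 of each list was higher, with list means that overlapped between the groups. No marker's level, at 0 or above, can be read from centred values. Without control sample 2, 8 of the 10 neuron markers were lower, and 1 was without control sample 3, SNI sample 1 or SNI sample 3. With the covariate no neuron marker was lower, and 1 microglia marker was higher in place of 6, with a list median of 0.13 in place of 0.26. The part of cell composition, of the hybridization controls and of control samples 1 and 3 in the chaperone differences was not tested further.

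**Figure D4:**
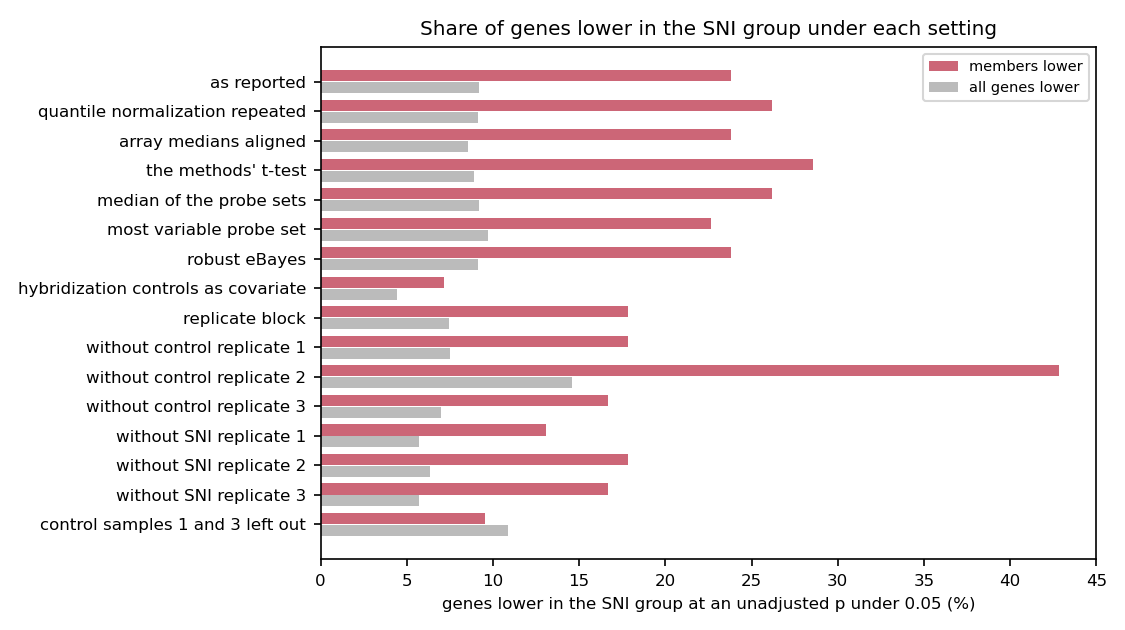
Share of the 84 chaperone genes (red bars) and of all 14217 genes (grey bars) that were lower in the SNI group at an unadjusted p under 0.05 (x axis, %), as reported and under each of 15 other settings (y axis). The red bar is the longer one in each setting except the last, in which control samples 1 and 3 were left out, where it is shorter than the 10.9% of all genes.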

How the data were processed

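mRNA of the contralateral PL was measured in 3 SNI and 3 control samples, grouped by their sample labels. The authors processed the Affymetrix signals by RMA, log2 transformation and quantile normalization. The deposited log2 values are also centred on each probe set's median over the 6 samples (0 within 4.78e-07), which no source used here describes, so levels, detection and signal over background cannot be read. Versions of that software were not given in the sources used here.

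Of 31099 probe sets, 57 array controls were left out, and of the 31042 others 20826 carried 1 gene symbol in the platform annotation, 436 several and 9780 none. Each of 14217 genes was given the mean of the probe sets with its symbol alone, and probe sets with several symbols name no gene. The 84 members were matched to current RefSeq genes by gene ID, with no symbol changed. The rule covers names only, so genes on probe sets with several symbols stayed out.

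All genes were fitted with lmFit and eBayes (R 4.3.3, limma 3.58.1), SNI minus control, two-sided, without covariates, with Benjamini-Hochberg adjustment over the 14217 genes. Genes were counted at an adjusted and at an unadjusted p under 0.05, and by groups that do not overlap. The fit was tested on simulated data. The number of arrays limits the precision. Members, gene lists and settings were chosen with earlier results of these data known. Members of the small Hsp, Hsp70, Hsp90, Cct and Hsf families, Stip1 and Ahsa1 could be named, and of the Dnaj and Bag genes those with an unadjusted p under 0.05 and the 2 highest and 2 lowest differences, with values by sample for the 12 smallest p. From other lists, genes with an unadjusted p under 0.05 were named. Hspbp1, the members of the endoplasmic reticulum and the members with a heat shock element were named after their values were seen. The lists were neuron, astrocyte, microglia, oligodendrocyte and endothelial with mural markers, other cochaperones and folding factors, prefoldin and Hsf1 targets. Promoter windows came from RefSeq build GRCr8, and a motif was searched on both strands. The settings tried instead were a repeated quantile normalization, aligned array medians, the methods' t-test, the median or the most variable probe set of a gene, robust eBayes, the hybridization controls as a covariate, a replicate block, each sample left out, an unadjusted p under 0.01 and an adjusted p under 0.10. Counts by probe set and the fit without control samples 1 and 3 were added after the data were seen. Tables were handled with Python 3.11.15 and pandas 2.3.3, and plots drawn with matplotlib 3.10.9.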

Additional observations from a re-analysis of the deposited data

Results flagged for a closer look

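The 18 hybridization controls, which are no part of the gene comparison, were higher on the SNI arrays by 0.272 on the log2 scale. By sample their mean was −0.0472, −0.204 and −0.224 on the control arrays and 0.191, 0.0535 and 0.0969 on the SNI arrays, so the groups did not overlap. The 6 probe sets of the chaperone families that carry several symbols, which enter no gene value, were all lower in the SNI group, the lowest at −0.204.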

How the results depend on the processing

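No member passed an adjusted p under 0.05 in limma in any of the 15 settings, or under 0.10 as reported. The members lower at an unadjusted p under 0.05 numbered 20 as reported, 8 at an unadjusted p under 0.01, 6 with the hybridization controls as a covariate, 8 with control samples 1 and 3 left out, and 11 to 36 with each sample left out in turn. Those higher numbered 1, and 2 with quantile normalization repeated, with array medians aligned, with the most variable probe set or by probe set, 0 with the methods' t-test or at an unadjusted p under 0.01, 3 with the covariate, 4 with control samples 1 and 3 left out, and 0 to 2 with each sample left out. With the replicate block the counts were 15 lower and 1 higher. Same-numbered samples did not deviate together (correlations of −0.0222, −0.0074 and −0.0454), so no pairing by number was seen. With 3 samples per group these values cannot show that there was none.

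With control samples 1 and 3 left out, the median log2 difference was −0.0521 for all members and −0.0563 for small Hsp, on the other side of 0. It was −0.0104 for Hsp70 and Hsp110, −0.110 for Dnaja, −0.0172 for Dnajb, −0.0539 for Dnajc, −0.0941 for Cct and −0.0297 for Bag. The median of all genes was then −0.0314, against −0.0113 as reported, so those of Hsp70 with Hsp110, Dnajb and Bag lay above it. With the covariate the median log2 difference was 0.0781 for small Hsp, −0.0898 for Hsp70 and Hsp110, −0.0393 for Hsp90, −0.0643 for Dnaja and −0.0833 for Dnajb. With the most variable probe set it was −0.122 for all members, −0.0908 for Dnajb and −0.138 for Dnajc. With each sample left out in turn the median log2 difference ran from −0.118 to −0.0755 for all members, 0.00181 to 0.0913 for small Hsp, −0.153 to −0.0405 for Hsp70 and Hsp110, −0.096 to −0.0371 for Dnajb, −0.125 to −0.0639 for Dnajc and −0.112 to −0.0618 for Bag. The −0.153 of Hsp70 and Hsp110 was without control sample 2.

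Single genes that turned sign and then passed an unadjusted p under 0.05 were Dnajb9 (0.208) and Hspa14 (0.190) with control samples 1 and 3 left out, Hspa2 (−0.215 without control sample 2, the lowest of −0.215 to 0.211 with each sample left out), Hspa9 (0.493) with the most variable probe set and Hspb8 (−0.404) with the covariate. The cause of these shifts was not tested. Hspb1 was called in all 15 settings, at −0.762 to −0.325. Background correction, a filter on dim probes and the slide as a block could not be tried on centred values without scanner files.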
